A study of Mus musculus with 4 samples.

Results

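The genes described here encode, with a few exceptions, the potassium, voltage-gated calcium, voltage-gated sodium and TRP cation channels of isolated mouse pancreatic islets, with their auxiliary subunits. They were taken by symbol alone: 163 of the 24421 rows of the deposited expression table begin with Kcn, Cacn, Scn and a digit, or Trpc, Trpm or Trpv and a digit, or are Abcc8 or Abcc9. Of these rows, 5 fall in no channel class and 2 of those were tested, and all are counted among the channel genes. The islets came from wild-type C57BL/6 mice, recovered overnight, and were kept in RPMI medium with 11 mM glucose. Of the 4 RNA sequencing libraries, 2 are of control islets, which the labels call untreated, and 2 are of islets given the treatment called cytoEV every day for 48 h before RNA was taken. By the series title the vesicles are small extracellular ones (membrane-bound particles that cells shed) of pro-inflammatory beta cells. In the table the control columns are headed as if vesicles had been given there as well, and neither that nor the time in culture of these islets is settled by the labels. Nothing states that replicates were separate animals or cultures. The p-values therefore measure the spread between these samples, which may be technical.

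Beta cells are electrically excitable. When glucose is metabolised, ATP closes the KATP channel, a complex of an inward rectifier pore and a sulfonylurea receptor. The membrane then depolarises, voltage-gated calcium and sodium channels open, and the calcium that enters triggers insulin release, while voltage-gated and calcium-activated potassium channels repolarise the cell. Several TRP channels carry cation current that adds to the depolarisation. The same gene families serve neurons, glia, smooth muscle and pericytes, which isolated islets also hold.

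Levels were deposited as CPM (counts normalised to the same total in every library), from which whole reads could be recovered, between 129726756 and 156183968 per library. A count of 3, the floor used here for counting error alone, is worth 0.0192 to 0.0231 CPM. The insulin genes Ins1 and Ins2, the alpha cell gene Gcg and the delta cell gene Sst were abundant in every library, as the label of pancreatic islets implies. The control pair was the more spread out: over all tested genes the median absolute log2 difference within the pair was 0.165 for control and 0.0727 for cytoEV, and over the tested channel genes it was 0.135 and 0.0899.

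Of the 163 channel genes, 82 reached at least 1 CPM in at least 2 libraries and were tested, 61 stayed under that filter with reads in at least 1 library, and 20 had no read in any library. In islets given cytoEV, 4 channel genes were higher and 8 lower (limma on log2(CPM + 1), Benjamini-Hochberg adjusted p under 0.05 over all 12780 genes tested). The genes that rose were Trpm5, Kcnh5, Kcnmb1 and Kcnu1, and those that fell were Kcnh1, Kcna6, Kcnj8, Scn7a, Kcne4, Abcc9, Kcnk3 and Kcnj6. The called share was 14.6% of the tested channel genes, beside 6.67% of all genes tested (3.16% higher and 3.51% lower). The log2(CPM + 1) scale understates the change of low genes, and on it the median absolute change was 0.18, beside 0.14 over all genes tested. In plain CPM the group means of 8 tested channel genes differed at least 2-fold, among them the called Kcnh5, Kcnmb1, Kcna6, Kcnj8, Scn7a and Kcne4. The median signed change was 0.03. In 54 of the 82 tested channel genes (65.9%) the groups did not overlap, beside 53.9% of all genes tested. For 1 gene alone, 2 libraries against 2 allow an exact permutation p of 0.333 at best, and the calls draw on limma's pooled spread. Leaving a library out moved the counts, as the lone library of a group is then assumed to vary like the other group. Without a control library the spread comes from the cytoEV pair alone, the tighter pair. Channel genes called higher and lower were 11 and 12 without control replicate 1, 13 and 15 without control replicate 2, 2 and 4 without cytoEV replicate 1, and 3 and 5 without cytoEV replicate 2. With no filter on low values, Kcnh5, Kcnmb1, Kcnu1, Kcne4, Abcc9, Kcnk3 and Kcnj6 were no longer called (adjusted p from 0.0537 to 0.15).

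**Figure D1:**
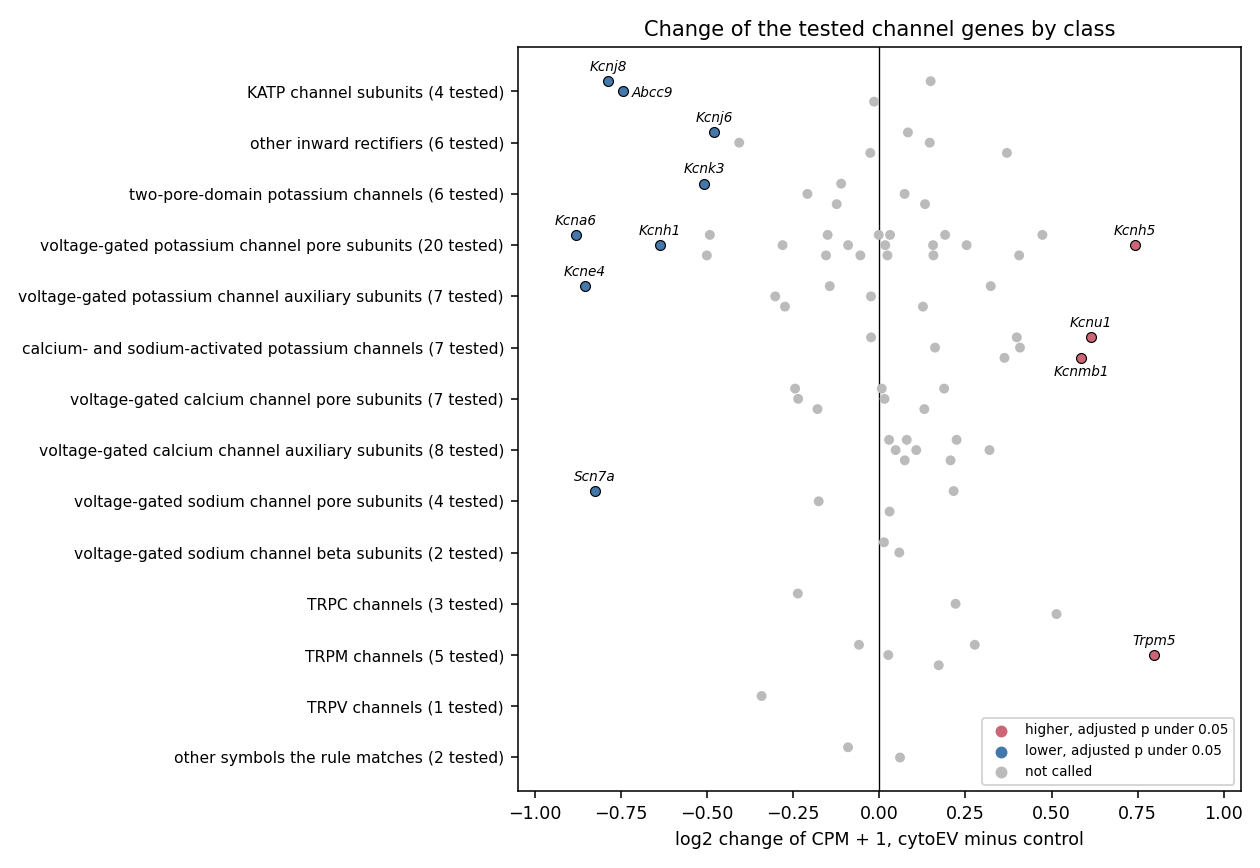
Log2 change of CPM + 1 (cytoEV minus control, horizontal axis) of each of the 82 tested genes, by class of channel; a point is a gene, coloured where the limma adjusted p was under 0.05. The 8 lower genes lie in the potassium channel classes and the sodium channel pore class, and the called calcium channel genes number 0.

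Kcnj8 and Abcc9, which encode the pore and the sulfonylurea receptor of the KATP channel best known from vascular smooth muscle and pericytes, were both lower in cytoEV islets. Kcnj8 was at 2.61 and 2.78 CPM in the control libraries and at 1.12 and 1.17 CPM in the cytoEV libraries. Both cytoEV values lay below both control values, and the mean went from 2.70 ± 0.117 to 1.14 ± 0.0366 CPM (SD, n = 2 each), 0.424 times the control mean. Its log2 change was -0.79 ± 0.12 (SE, limma adjusted p = 0.00714). Abcc9 was at 7.52 and 9.46 CPM in control islets and at 4.11 and 5.21 CPM in cytoEV islets. The groups again did not overlap, and the log2 change was -0.75 ± 0.15 (SE, limma adjusted p = 0.0228). Leaving out cytoEV replicate 1 ended this call (adjusted p = 0.113).

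Kcnj11 and Abcc8 encode the corresponding subunits of the beta cell KATP channel, the target of sulfonylurea drugs. Kcnj11 was at 121.2 and 104.6 CPM in control islets and at 120.0 and 130.01 CPM in cytoEV islets. Abcc8 was at 1041 and 884 CPM in control islets and at 927 and 972 CPM in cytoEV islets. The groups overlapped for both genes and neither passed: the log2 change was 0.15 for Kcnj11 (95% interval -0.08 to 0.38, limma adjusted p = 0.416) and -0.02 for Abcc8 (95% interval -0.23 to 0.20, adjusted p = 0.943). Without control replicate 1 the log2 change was 0.254 for Kcnj11 and 0.102 for Abcc8. Per kb of merged exons the control means were 30.7 CPM for Kcnj11 and 119 CPM for Abcc8, against 1.06 CPM for Kcnj8 and 1.01 CPM for Abcc9. Whether the change of the Kcnj8 and Abcc9 pair differs from that of the Kcnj11 and Abcc8 pair was not tested.

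**Figure D2:**
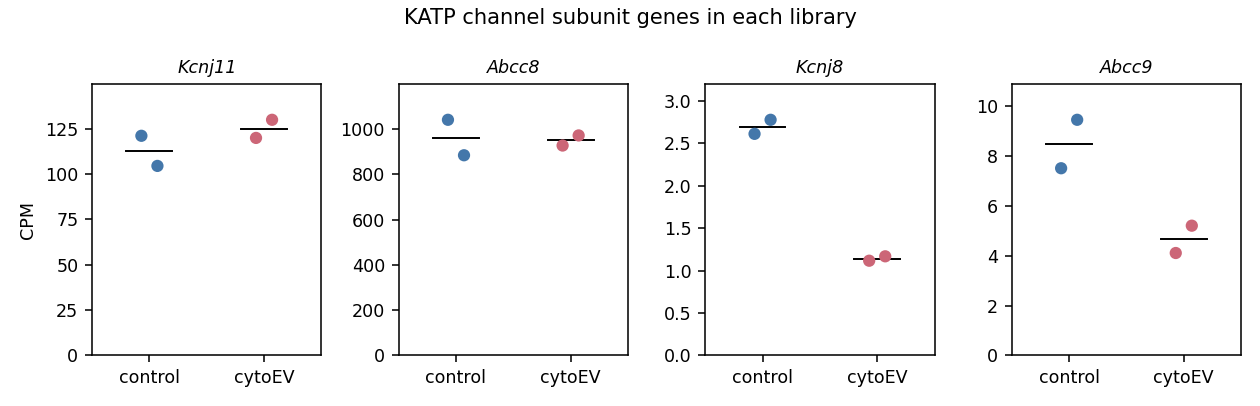
CPM of the 4 KATP subunit genes in each library; points are libraries, horizontal bars the mean of each group, and each vertical axis starts at 0. Kcnj8 and Abcc9 are lower in both cytoEV libraries, and the groups overlap for Kcnj11 and Abcc8.

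Each pair lies side by side in the genome. On GRCm38 (the assembly also called mm10), GENCODE M21 places Kcnj8 on chromosome 6 from 142564837 to 142571614 and Abcc9 from 142587862 to 142702315, both on the minus strand with 16247 bases between them. Kcnj11 lies on chromosome 7 from 46093953 to 46100764 and Abcc8 from 46104523 to 46180033, also both on the minus strand, with 3758 bases between them. The promoters of Kcnj8 and Abcc9 are printed because these neighbours fell together, and that of Trpm5 because it was the called gene with the smallest p. That of Kcnj6 holds TTCNNNGAA, a searched motif described below. Windows of called genes that hold the searched motif ACGTG are not printed. Each window runs from 250 bases before to 50 bases after a gene's start, 5′ to 3′ along the gene's strand (RefSeq, GRCm38.p6), with any searched motif in capitals.
Kcnj8 (chr6:142571565-142571864, minus strand): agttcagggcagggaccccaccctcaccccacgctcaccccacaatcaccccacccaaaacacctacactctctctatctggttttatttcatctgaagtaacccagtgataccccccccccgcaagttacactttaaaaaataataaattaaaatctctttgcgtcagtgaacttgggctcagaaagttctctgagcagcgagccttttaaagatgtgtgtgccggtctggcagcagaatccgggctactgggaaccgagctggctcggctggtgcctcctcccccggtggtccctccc
Abcc9 (chr6:142702225-142702524, minus strand): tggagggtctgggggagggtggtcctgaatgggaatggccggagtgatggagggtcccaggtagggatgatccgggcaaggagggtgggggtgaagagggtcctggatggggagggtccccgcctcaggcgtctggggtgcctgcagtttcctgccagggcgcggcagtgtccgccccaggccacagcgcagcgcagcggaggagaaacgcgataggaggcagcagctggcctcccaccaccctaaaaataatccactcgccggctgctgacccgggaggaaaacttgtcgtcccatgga
Trpm5 (chr7:143094593-143094892, minus strand): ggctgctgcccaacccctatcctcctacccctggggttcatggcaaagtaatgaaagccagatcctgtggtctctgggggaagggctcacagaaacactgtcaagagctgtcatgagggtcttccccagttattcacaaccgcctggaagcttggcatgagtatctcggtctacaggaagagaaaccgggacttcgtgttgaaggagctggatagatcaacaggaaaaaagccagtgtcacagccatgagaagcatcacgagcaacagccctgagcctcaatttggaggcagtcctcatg
Kcnj6 (chr16:94997647-94997946, minus strand): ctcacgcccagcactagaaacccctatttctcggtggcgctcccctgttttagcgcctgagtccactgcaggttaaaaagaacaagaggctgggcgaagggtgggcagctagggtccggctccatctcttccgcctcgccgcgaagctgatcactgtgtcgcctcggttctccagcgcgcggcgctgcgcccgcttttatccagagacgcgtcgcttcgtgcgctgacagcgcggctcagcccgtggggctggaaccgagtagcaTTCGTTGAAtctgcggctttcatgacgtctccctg

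The motifs were GAAANNGAA (the core of the interferon-stimulated response element), TTCNNNGAA (the gamma-activated site bound by STAT factors), ACGTG (the core of the hypoxia response element) and TGACGTCA (the cAMP response element), searched on both strands. The first 2 can overlap each other. Of the 12 called channel genes, 10 had at least 1 promoter in the table, in 11 windows. None of the 11 windows held GAAANNGAA or TGACGTCA, which occurred in 8.56% and 1.79% of all 32851 windows of that length. TTCNNNGAA was in 1 of the 11, the Kcnj6 window above, beside 8.3% of all windows. ACGTG was in 3 of the 11, those of Kcna6, Kcne4 and a further start of Kcnj6, beside 19.6% of all windows. A match is a run of letters and not a bound site.

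Among the other inward rectifiers, 1 of 6 tested genes was lower and 5 did not pass. In this and each later channel class, the called counts stand beside 3.16% higher and 3.51% lower of all genes tested. Kcnj6, a pore subunit of the G protein-gated channel that inhibitory receptors open, was at 14.8 and 15.6 CPM in control islets and at 10.4 and 10.9 CPM in cytoEV islets. The log2 change was -0.48 ± 0.11 (SE, limma adjusted p = 0.0348). It no longer passed when cytoEV replicate 1 (adjusted p = 0.441) or cytoEV replicate 2 (0.246) was left out. The antisense gene Gm41505 shares 4.98% of its exon bases. Of the tandem-pore (K2P) leak channels, 1 of 6 was lower. Kcnk3, an acid-sensitive leak channel, went from 15.2 and 16.4 CPM to 11.1 and 10.5 CPM, a log2 change of -0.51 with an SE of 0.11 (limma adjusted p = 0.0295). Leaving out cytoEV replicate 1 (0.222) or cytoEV replicate 2 (0.320) ended the call, and Gm9899 on the opposite strand shares 5.76% of its exon bases. For both genes the cytoEV libraries lay below both control libraries.

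Kcnk16, an alkaline-activated leak channel of the same family found mainly in the pancreas, was at 197.1 and 166.4 CPM in control islets and at 167.2 and 168.0 CPM in cytoEV islets. It did not pass (log2 change -0.11, 95% interval -0.34 to 0.11, limma adjusted p = 0.547), and control replicate 1 was the high library. Without that library its log2 change was 0.0104, and without control replicate 2 it was -0.232.

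Among the pore subunits of voltage-gated potassium channels, 2 of 20 tested were lower, 1 was higher and 17 did not pass. A pair of ether-à-go-go paralogs moved in opposite directions. Kcnh1 was at 37.7 and 37.2 CPM in the control libraries and at 23.7 CPM in each cytoEV library, and Kcnh5 was at 1.24 and 1.26 CPM in control and at 3.07 and 2.48 CPM in cytoEV islets. The Kcnh1 mean fell to 0.633 times the control mean (log2 change -0.64 ± 0.09 SE, limma adjusted p = 0.00538), and the Kcnh5 mean rose 2.22-fold (log2 change 0.74 ± 0.13 SE, adjusted p = 0.0139). Per kb of merged exons, Kcnh1 was still the higher of the pair in cytoEV islets, at 3.23 against 0.685 CPM. Kcnh1 was past the threshold neither when cytoEV replicate 1 was left out (log2 change -0.639, adjusted p = 0.0666) nor when cytoEV replicate 2 was (-0.637, 0.0605).

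Kcna6, a Shaker-type delayed rectifier, was at 1.91 and 1.63 CPM in control islets and at 0.529 and 0.477 CPM in cytoEV islets. Both cytoEV values lay below both control values, and the mean fell to 0.284 times that of control (log2 change -0.88 ± 0.13 SE, limma adjusted p = 0.00540). An annotated antisense gene on the opposite strand, Gm26673, covers 39.6% of the exon bases of Kcna6. As strand use in counting is not stated in the labels, the separate level of Kcna6 is uncertain. Kcnh6, an ERG-type channel, had means of 47.2 ± 7.97 and 46.9 ± 1.51 CPM (SD, n = 2 each) and a log2 change of -0.0018 (95% interval -0.28 to 0.28, limma adjusted p = 0.996).

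Of 7 auxiliary subunits of voltage-gated potassium channels, 1 was lower. Kcne4, a membrane protein that reduces the current of several such channels, was at 2.00 and 1.43 CPM in control islets and at 0.602 and 0.397 CPM in cytoEV islets (log2 change -0.85 ± 0.15 SE, limma adjusted p = 0.0136). Kcnip1, a calcium-binding subunit of A-type channels, was chosen for its values. It was at 58.8 and 61.3 CPM in control islets and at 111.7 and 50.7 CPM in cytoEV islets, so the cytoEV libraries lay on opposite sides of the control level. Its adjusted p was 0.546. Leaving out cytoEV replicate 2 gave a log2 change of 0.885 (adjusted p = 0.000807), and leaving out cytoEV replicate 1 gave -0.238 (0.949).

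The class called calcium- and sodium-activated potassium channels was formed by gene symbol, Kcnu1 included, and not by what opens each channel. Of its 7 tested members 2 were higher and 0 lower, beside 3.16% higher and 3.51% lower of all genes tested. The median log2 change of the 7 members was 0.40, beside 0.006 over all genes tested. Kcnmb1 and Kcnmb2 encode beta subunits of the large-conductance (BK) channel, and Kcnma1 encodes its pore. Kcnmb1 was at 0.794 and 0.941 CPM in control islets and at 1.78 and 1.82 CPM in cytoEV islets, a 2.08-fold rise of the mean (log2 change 0.59 ± 0.13 SE, limma adjusted p = 0.0308). With cytoEV replicate 1 left out the adjusted p was 0.0519, and with cytoEV replicate 2 left out 0.0631. On chromosome 11 Kcnmb1 (33963013 to 33973641, plus strand) lies within the span of Kcnip1 (33629339 to 33993152, minus strand), although no exon of one overlaps an exon of the other in GENCODE M21.

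Kcnmb2 was far more abundant, at 74.8 and 84.9 CPM in control islets and at 110.5 and 100.5 CPM in cytoEV islets. The groups did not overlap, but the adjusted p was 0.0509, just over the threshold (log2 change 0.40 ± 0.10 SE, limma). With every library kept, it passed with TMM rescaling (adjusted p = 0.0466), quantile normalization (0.0296), a pseudocount of 5 (0.0495) and DESeq2 (0.00335). It did not pass in edgeR (0.0541), with pseudocounts of 0.1 (0.0541) and 0.5 (0.052), with median centring (0.0586), with a filter of 5 CPM (0.0617), without the intensity trend (0.0786), with a replicate block (0.09) or with no filter (0.13). Its log2 change was 0.308 and 0.49 without control replicates 1 and 2, and 0.331 and 0.467 without cytoEV replicates 1 and 2. Kcnma1 had the wider spread, at 49.2 and 73.4 CPM in control islets and at 61.7 and 56.6 CPM in cytoEV islets, and did not pass (log2 change -0.02, 95% interval -0.40 to 0.35, adjusted p = 0.949). Single control libraries turned its direction: the log2 change was -0.308 without control replicate 1 and 0.26 without control replicate 2. Kcnu1, whose product is best known as the potassium channel of sperm, was at 3.23 and 4.42 CPM in control islets and at 6.25 and 6.42 CPM in cytoEV islets. Its log2 change was 0.61 ± 0.14 (SE, limma adjusted p = 0.0417). It missed the threshold with TMM rescaling (0.0508), median centring (0.0515), quantile normalization (0.0638), a filter of 5 CPM (0.056) and edgeR (0.0698), and when cytoEV replicate 1 (0.0715) or cytoEV replicate 2 (0.0972) was left out.

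Voltage-gated calcium channels admit the calcium that triggers insulin release. Of their pore subunits, 7 were tested. With every library kept, 0 were called in the reported limma test, edgeR or DESeq2, and 0 had an unadjusted limma p under 0.05. Cacna1d and Cacna1c encode the L-type pores of beta cells. Cacna1d was at 179.8 and 186.2 CPM in control islets and at 185.6 and 184.2 CPM in cytoEV islets (log2 change 0.02, 95% interval -0.17 to 0.20, limma adjusted p = 0.934). Its groups overlapped. Cacna1c was at 143.9 and 150.4 CPM in control islets and at 129.5 and 130.1 CPM in cytoEV islets, without overlap, but did not pass (log2 change -0.18, 95% interval -0.37 to 0.01, adjusted p = 0.230). Without control replicate 1 its log2 change was -0.211.

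Cacna1a, a P/Q-type pore, went from a mean of 56.7 ± 1.20 to 62.1 ± 0.559 CPM (SD, n = 2 each) and had a limma adjusted p of 0.413. Cacna1h, a T-type pore that opens near the resting potential, had means of 6.04 ± 0.988 and 4.92 ± 0.439 CPM (SD, n = 2 each). Its limma adjusted p was 0.334, and its log2 change was -0.388 without control replicate 2. With every library kept, 0 of the 8 auxiliary subunits tested were called in the reported limma test, edgeR or DESeq2. In that limma test 1 had an unadjusted p under 0.05. That gene was Cacna2d1, which helps bring the pore to the membrane, at 160.4 and 196.4 CPM in control and at 235.3 and 209.1 CPM in cytoEV islets (log2 change 0.32, 95% interval 0.06 to 0.58, adjusted p = 0.135). Without control replicate 2 its log2 change was 0.465. The beta subunit genes Cacnb2 and Cacnb3 had log2 changes of 0.11 and 0.07, and the gamma subunit gene Cacng4 had 0.22 (adjusted p = 0.565, 0.737 and 0.338).

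Of 4 sodium channel pore genes tested, 1 was lower. Scn7a, which encodes a sodium-sensing relative of these channels known from glia, Schwann cells included, was at 2.04 and 2.36 CPM in control islets and at 0.921 and 0.690 CPM in cytoEV islets. The cytoEV mean was 0.366 times the control mean, a difference of -0.83 ± 0.14 in log2(CPM + 1) (SE, limma adjusted p = 0.00897). Scn9a and Scn3a carry the sodium current of mouse islet cells. Scn9a was at 40.2 and 40.7 CPM in control islets and at 49.0 and 45.3 CPM in cytoEV islets, and Scn3a at 27.6 and 30.5 CPM and at 25.9 and 25.2 CPM. The groups of neither gene overlapped and neither passed (limma adjusted p = 0.212 and 0.341). Without control replicate 2 the log2 change of Scn9a was 0.225. The paralogs Scn9a and Scn3a share 4.04% and 6.49% of their 50-base stretches with other genes. Scn8a had a log2 change of 0.03 (95% interval -0.20 to 0.26).

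Among the TRP channels, Trpm5 was the called channel gene with the smallest p. It encodes a calcium-activated cation channel of taste cells and beta cells. Its level was 87.0 and 92.3 CPM in control islets and 153.0 and 159.9 CPM in cytoEV islets, so both cytoEV libraries lay well above both control libraries. The mean rose 1.75-fold, from 89.7 ± 3.75 to 156.5 ± 4.90 CPM (SD, n = 2 each), and the log2 change was 0.80 ± 0.08 (SE; adjusted p = 0.000936 in limma). Trpm5 spans 143069153 to 143094642 of chromosome 7 (minus strand). The oppositely oriented Tssc4 overlaps 3.44% of its exon bases.

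The other 4 TRPM genes tested did not pass. Trpm4, also calcium-activated, was at 14.5 and 11.3 CPM in control and at 13.7 and 12.4 CPM in cytoEV islets (log2 change 0.03, 95% interval -0.29 to 0.34, limma adjusted p = 0.934). Trpm2, which opens on ADP-ribose and oxidants, went from 15.6 and 13.9 CPM to 18.4 and 17.7 CPM (limma adjusted p = 0.175). Without control replicate 1 its log2 change was 0.357. Trpm7, a channel fused to a kinase, had means of 87.7 ± 11.1 and 83.8 ± 3.44 CPM (SD, n = 2 each, adjusted p = 0.788). Of 3 TRPC genes tested 0 were called in the reported limma test, with every library kept. In that test 1, Trpc7 (named after its values were seen), had an unadjusted p under 0.05. Trpc7 was at 0.648 and 0.435 CPM in control and at 1.23 and 1.17 CPM in cytoEV islets, with an adjusted p of 0.0603. EdgeR called 0 of the TRPC genes and DESeq2 1. Trpc1 had means of 46.0 ± 6.98 and 38.7 ± 2.12 CPM (SD, n = 2 each, limma adjusted p = 0.276). Its log2 change was -0.389 without control replicate 1.

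**Figure D3:**
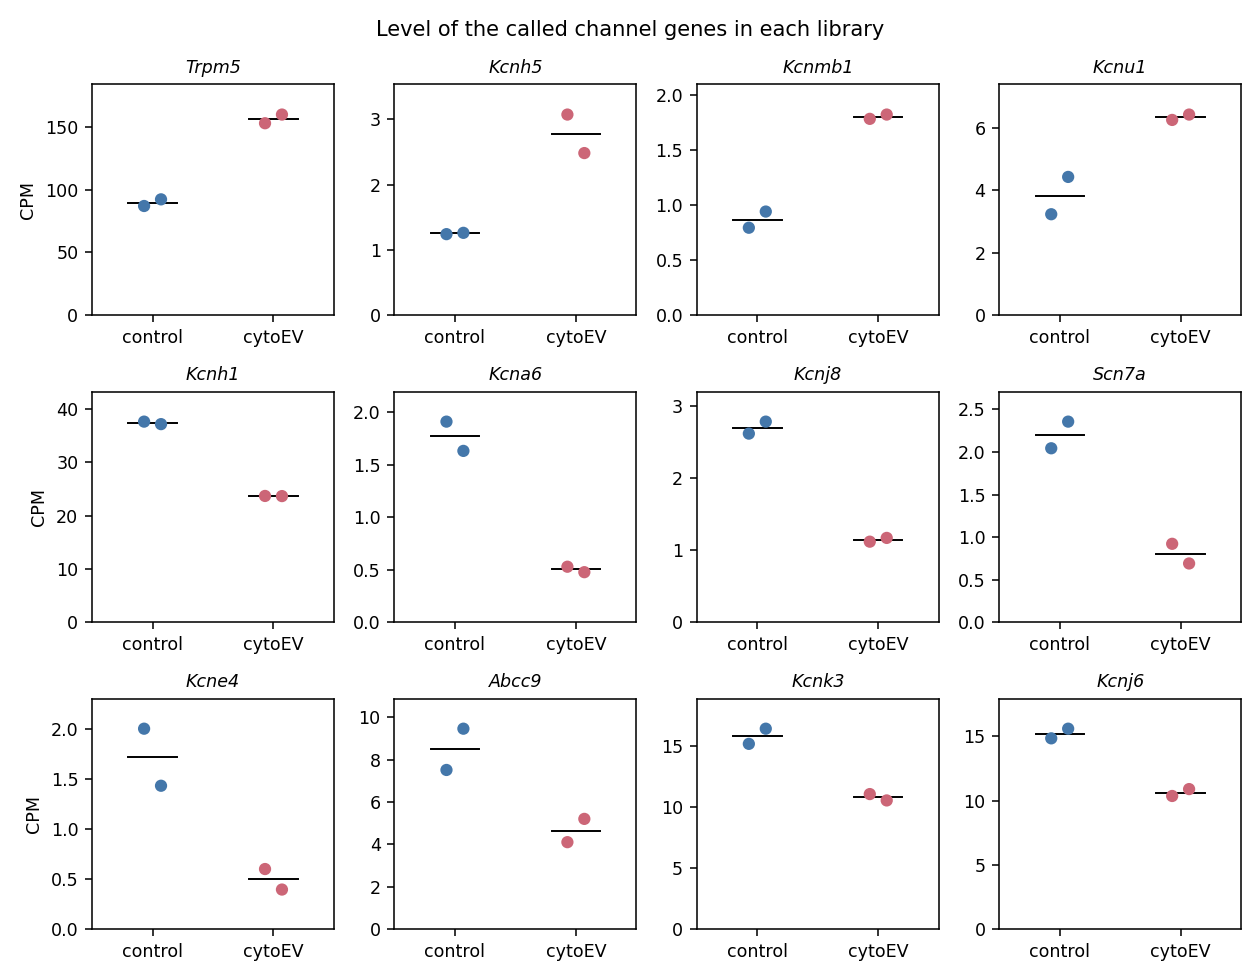
CPM of the 12 called channel genes in each library; points are libraries, horizontal bars the mean of each group, and each vertical axis starts at 0. In all 12 panels both cytoEV libraries lie on the same side of both control libraries, which choosing called genes favours. The groups did not overlap in 53.9% of all genes tested.

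Levels were compared between genes per kb of merged exons. In control islets Abcc8 was highest with 119 ± 13.7 CPM per kb, followed by Kcnk16 with 76.4 ± 9.12, Kcnj11 with 30.7 ± 3.20 and Kcnmb2 with 25.5 ± 2.30 CPM per kb (SD, n = 2 each). The values of each of these genes did not overlap those of the next in order. Next was Trpc4ap with 20.6 ± 0.533 CPM per kb, but it encodes a protein that binds a TRPC channel and is no channel, and its adjusted p was 0.542. From rank 8 to rank 13, Cacna1d, Cacna2d1, Trpm5, Cacnb3, Kcnh6 and Kcnh2 ran from 14.5 to 12.0 CPM per kb, and in that stretch the control values of each gene overlapped those of the next. In cytoEV islets Trpm5 stood at 24.5 ± 0.765 CPM per kb, above the 14.6 ± 0.0776 CPM per kb of Cacna1d (SD, n = 2 each).

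**Figure D4:**
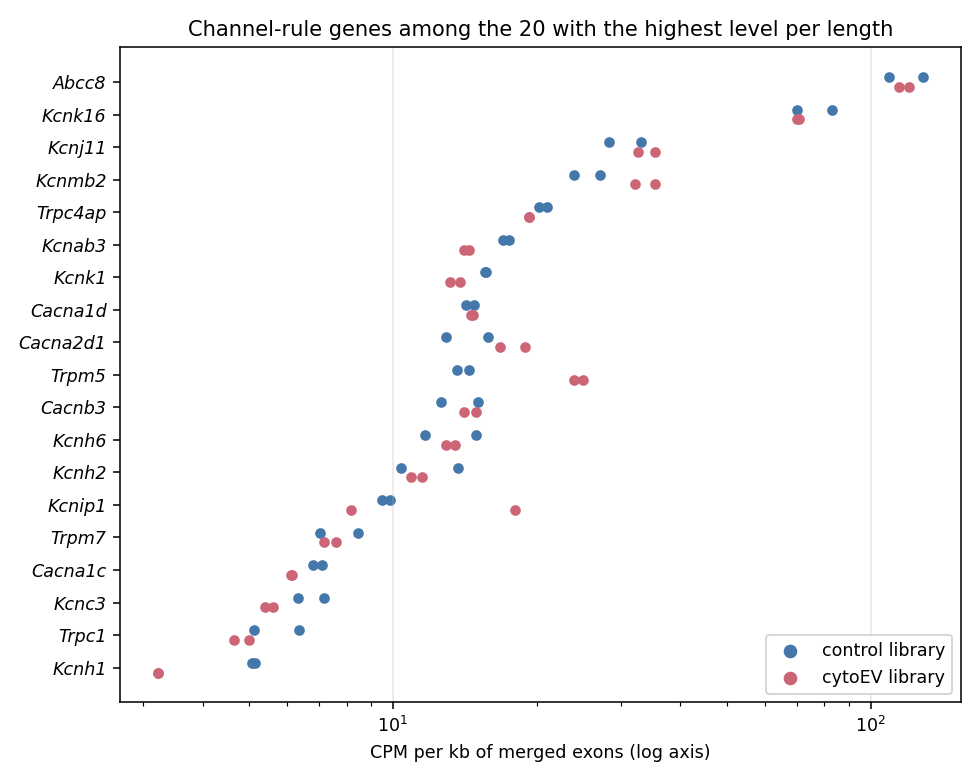
Level per length (CPM per kb of merged exons, log axis) of genes among the 20 with the highest control mean; each point is a library, control and cytoEV drawn one above the other. Abcc8 leads in both groups, and the cytoEV libraries of Kcnip1 stand apart from each other. The called Trpm5 and Kcnh1 show separated groups, as do genes not called, Kcnmb2 and Cacna2d1 among them.

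Channel genes below the filter were not tested. Kcnn4, the intermediate-conductance calcium-activated potassium channel, had 81 and 84 reads in control and 83 and 104 reads in cytoEV islets. Kcnq1 had 68 and 123 reads in control and 71 and 81 reads in cytoEV islets. Trpv1, the capsaicin receptor of sensory neurons, had 9 and 0 reads in control and 11 and 0 reads in cytoEV islets. Just under the filter, Kcne3, an auxiliary subunit gene chosen after its values were seen, was at 0.987 and 0.999 CPM in control and at 0.442 and 0.485 CPM in cytoEV islets. Just over it, Cacng4 was tested on 0.779 and 0.922 CPM in control and 1.19 and 1.13 CPM in cytoEV islets. The groups did not overlap in 16 of the 61 untested channel genes with reads (26.2%), beside 34.1% of all genes under the filter with reads.

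Of 77 further genes for excitability and calcium handling, listed with the channel classes, 75 were in the table and 68 were tested. In cytoEV islets 4 were higher and 5 lower, beside 3.16% higher and 3.51% lower of all genes tested. The median log2 change of the 68 was -0.01. Gem, a small GTPase that inhibits voltage-gated calcium channels, fell from 13.7 and 17.0 CPM to 4.99 and 5.5 CPM (log2 change -1.38 ± 0.13 SE, limma adjusted p = 0.000511). Slc2a2, the glucose transporter gene of mouse beta cells, rose by 1.19 ± 0.08 (SE, adjusted p = 7.65e-05). Gem and Slc2a2 kept their calls whichever library was left out. The mechanosensitive channel genes Piezo2 and Piezo1 were lower, by -0.76 and -0.65 (adjusted p = 0.00655 and 0.0250).

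Gjd2, which encodes the gap junction protein that couples beta cells, went from 220.2 and 247.9 CPM to 337.5 and 324.7 CPM (log2 change 0.50, limma adjusted p = 0.0129). Gja1, a connexin gene of other cell types, was lower with a log2 change of -0.54 (adjusted p = 0.0326). Atp2a3, which encodes an endoplasmic reticulum calcium pump, was higher with a log2 change of 0.43 (adjusted p = 0.0391). Without cytoEV replicate 1 the adjusted p of Gjd2, Gja1, Atp2a3 and Piezo1 were 0.264, 0.125, 0.317 and 0.0862. Without cytoEV replicate 2 those of Gjd2, Gja1 and Atp2a3 were 0.143, 0.203 and 0.451. The list's counts without a library ran from 1 to 18 higher and from 2 to 10 lower, and control replicate 2 and cytoEV replicate 1 gave the extremes.

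Markers of other cell types moved in the same libraries. The counts of each short list stand beside 3.16% higher and 3.51% lower of all genes tested. In bulk islets fewer cells of a type and less RNA per cell cannot be told apart. Of 6 Schwann cell markers tested 3 were lower, and their sum was 29.2 to 29.5 CPM in control and 16.8 to 18.5 CPM in cytoEV islets. Of 7 neuron markers 4 were lower (summed level 145.5 to 152.1 against 114.1 to 118.6 CPM). Log2 changes in the Schwann list were below 0 in 6 of 6 markers, down to -1.31 for Gfap. In the neuron list they were below 0 in 5 of 7 and above 0 in 2, from -3.04 for Vip to 0.21, with a median of -0.53. The neuron list had 2 lower without cytoEV replicate 1, and without either control library 1 of its markers was higher. The lower channel genes, Scn7a among them, fell beside these lists, and the part of these cells in that result was not tested.

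Of 6 smooth muscle and pericyte markers tested 0 were called in limma, and their sum was 37.2 to 38.7 CPM in control and 32.9 to 36.3 CPM in cytoEV islets. The pericyte gene Rgs5 was at 8.80 and 11.5 CPM in control and at 7.48 and 6.96 CPM in cytoEV islets (log2 change -0.43, limma adjusted p = 0.111), the lowest of the list. The log2 change was above 0 in 3 of the 6 and below 0 in 3, with 0.23 as the highest and a median of -0.09, and Cnn1 was at 0 in every library. Without control replicate 1, and also without control replicate 2, 1 marker of this list was lower. Of 8 endothelial markers 3 were lower (summed level 64.5 to 65.2 against 49.1 to 52.5 CPM), and 3 of 7 stellate and fibroblast markers were lower (264.5 to 318.7 against 216.1 to 236.7 CPM). The endothelial count was 5 without control replicate 2 and 1 without either cytoEV library, and the stellate count was 6 without control replicate 2. These values stand beside the lower Kcnj8 and Abcc9, and their part in that result was not tested.

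Of 10 beta cell markers 2 were higher and 0 lower (summed level 209208 to 237717 against 235545 to 245846 CPM), and none of 7 alpha or 4 delta cell markers was called. Of the 2 higher beta cell markers, Slc2a2 is also counted as higher in the excitability list. The beta cell count was 5 higher without either control library and 1 without either cytoEV library, with 1 lower without control replicate 2. In the alpha list 1 was lower without control replicate 1, and in the delta list 1 without control replicate 2. Acinar markers were low and 3 of 4 tested were lower (29.3 to 32.1 against 14.1 to 16.5 CPM, with Amy2a2 at 0), as was 1 of 3 ductal markers (366.4 to 389.4 against 316.6 to 325.5 CPM) and 1 of 2 markers of pancreatic polypeptide cells (2927 to 3869 against 2318 to 2490 CPM). Among 8 macrophage markers 1 was higher and 1 lower (127.1 to 150.9 against 156.8 to 166.1 CPM). Lymphocyte markers summed to 4.41 to 4.79 CPM in control and 6.57 to 7.26 CPM in cytoEV islets, with Cd3e, Cd3g and Ms4a1 among those at 0, and 1 of 2 tested was higher, or 0 without cytoEV replicate 2. Of the polypeptide cell list 2 were lower without either control library and 0 without cytoEV replicate 1, and of the ductal list 2 without control replicate 2. The macrophage counts were 3 higher and 1 lower without control replicate 1, 2 and 2 without control replicate 2, and 1 and 0 without either cytoEV library.

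**Figure D5:**
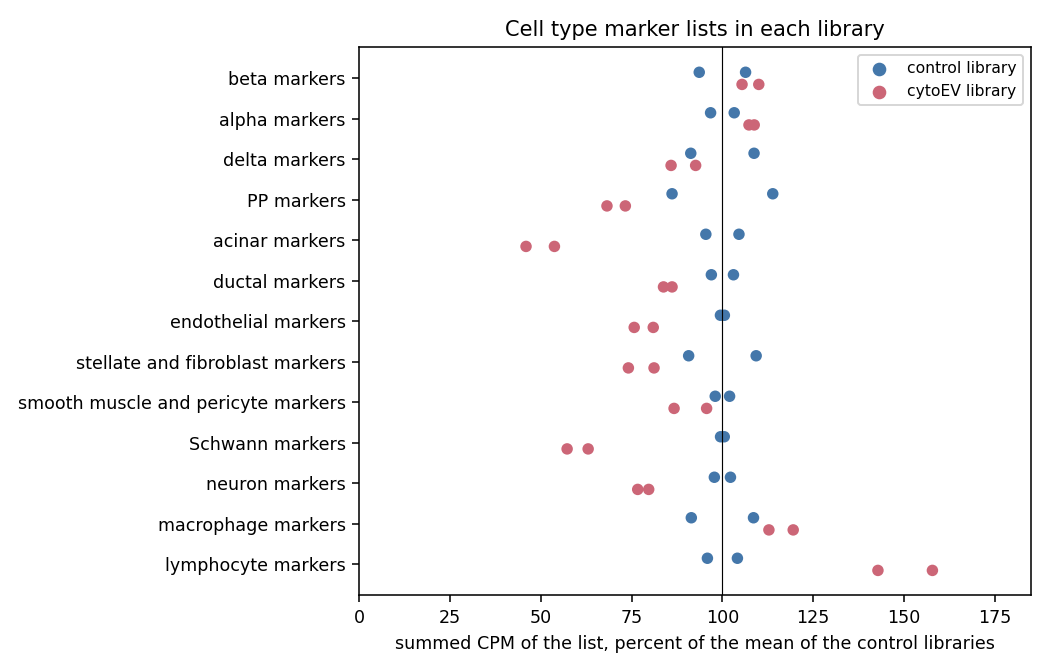
Summed CPM of each cell type marker list in each library, as a percent of the mean of the control libraries (horizontal axis starts at 0). Schwann and acinar lists lie farthest below the control line in both cytoEV libraries, and the smooth muscle and pericyte list lies close to it.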

How the data were processed

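RNA of isolated mouse islets was made into libraries with a stranded mRNA kit, per the labels' protocols, 2 for control and 2 for cytoEV. Tools named in the submitters' processing notes, without role or order, are edgeR 3.1.1, R 3.6.1, TopHat2 2.0.6 and StringTie 2.1.3, with mm10 as the build. The authors deposited 1 table of CPM values, in which every column sums to 1000000. Control columns were assigned to the untreated samples by name and number. Whole reads were recovered from the table: 100% of the values above 0 came out whole to within 0.01.

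Genes reaching 1 CPM in 2 or more libraries entered limma (version 3.58.1, R version 4.3.3) as log2(CPM + 1). Moderation used an intensity trend, with 2 residual degrees of freedom, and p-values were adjusted by Benjamini-Hochberg over all 12780 genes. On this scale fold changes of low genes are understated. The script was tested on simulated data. The channel genes, classes and lists were chosen with earlier results of these data known. Named were all called members, the 10 with the highest mean CPM, a fixed set of islet channel genes, up to 8 called genes of the excitability list by smallest p, and defining markers. Some genes this rule covers are not reported here. Alternatives were other pseudocounts, filters and scalings, no trend, a replicate block, each library left out, and edgeR 4.0.16 and DESeq2 1.42.0 on recovered reads. GENCODE M21 supplied coordinates, exon lengths and the 50-base stretches, and matched all 163 channel genes. Tables and plots were made in Python 3.11.15, pandas 2.3.3 and matplotlib 3.10.9.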

Additional observations from a re-analysis of the deposited data

How the results depend on the processing

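Of the 12 called channel genes, 12 were called with pseudocounts of 0.1, 0.5 and 5, without the intensity trend and in DESeq2. In edgeR and with each rescaling 11 were called, and with no filter 5 of these 12. Leaving out a cytoEV library ended some of the calls, as given with each gene. With no filter 1 channel gene was higher and 5 lower (all genes: 149 and 179), and with a filter of 5 CPM 1 and 4 (all genes: 252 higher). DESeq2 called 745 of all genes higher and 845 lower. Leaving out a library gave from 2 to 13 channel genes higher and from 4 to 15 lower, and from 215 to 2408 and from 249 to 2023 of all genes. The lone library of a group is then assumed to vary like the other group.

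The replicate numbers pair nothing in the labels, and deviations of same-numbered libraries correlated at -0.22. With a replicate block limma called 481 of all genes higher and 512 lower, and 6 and 10 channel genes. With the crossed pairing, added after seeing the data, the counts were 1469 and 1434, and 13 and 14 channel genes.

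Of the named channel genes, those whose direction turned had no call in the reported test, and the cause was not tested. With quantile normalization the log2 change was 0.0783 for Abcc8, 0.00282 for Kcnh6 and -0.00206 for Trpm4, and with median centring -0.0118 for Cacna1d and -0.000964 for Trpm4. Leaving out 1 library at a time gave ranges of -0.133 to 0.102 for Abcc8, -0.0101 to 0.0401 for Cacna1d, -0.232 to 0.0104 for Kcnk16, -0.308 to 0.26 for Kcnma1, -0.171 to 0.168 for Kcnh6, -0.0564 to 0.204 for Cacnb3, -0.0218 to 0.0811 for Scn8a, -0.144 to 0.195 for Trpm4 and -0.187 to 0.0691 for Trpm7. At these depths 3 reads are worth 0.0192 to 0.0231 CPM, and the effect of depth on the calls was not tested.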
